A study of Mus musculus with 16 samples.

Results

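The MYC family and its partners are 10 genes, *Myc*, *Mycn*, *Mycl*, *Max*, *Mxd1*, *Mxd3*, *Mxd4*, *Mxi1*, *Mnt* and *Mlx*, whose probes were picked out by matching the transcript identifier of each non-control probe to these symbols. They held 16 of the 56605 probes of the array, and 14 of these 16, at least 1 for each of the 10 genes, were among the 27579 probes that passed the filter on dim probes. The data were 16 one-colour Agilent arrays of primary podocytes, the epithelial cells that carry the filtration slits of the glomerulus, from male Jcl:ICR mice. All mice carried *Tsc2* alleles with loxP sites. *Tsc2flox/flox* mice had no Cre and served as controls, and *Tsc2Δpodocyte* mice also carried *Cre* under a promoter used in podocytes, which removes *Tsc2* only in cells that use this promoter. Each genotype was measured without treatment at 4 weeks of age and at 5 weeks of age, 1 week after rapamycin, an inhibitor of mTORC1, was given to the mice, with 4 arrays per group. The cells grew out of bead-isolated glomeruli in culture and were not sorted. In such bulk samples, fewer cells of a type and less RNA per cell cannot be told apart. No source says that each sample came from its own mouse, and a p-value here therefore reflects the spread among these cultures, which may be technical.

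The MYC proteins are transcription factors that bind the DNA sequence called the E-box as dimers with MAX and raise the transcription of genes for growth, nucleotide synthesis and ribosome production. MXD1, MXI1, MXD3, MXD4 and MNT also pair with MAX at E-boxes, but they bring SIN3 corepressor complexes and lower transcription, and MLX pairs with some of these repressors and with the glucose-responsive MONDO factors. mTORC1, which the TSC2 protein restrains, promotes protein synthesis, including that of MYC, and *Mycn* is known in the kidney for its use in nephron progenitors of the embryo.

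Promoter sequence of the members is shown because several of the genes carry the E-box that the family itself binds, and because the *Mycn* promoter, the gene with the widest differences on these arrays, holds several copies of a motif of E2F, the cell cycle factors. RefSeq (build GRCm38.p6) gave 11 windows of 300 bases around the starts of 9 of the 10 members. There was no window for *Myc*, so its promoter was not searched. The E-box, CACGTG, which reads the same on both strands, was found in 4 of these 11 windows and in 7.15% of all 32851 windows of this length. The E2F motif, TTTGGCGC or TTTCGCGC on either strand, was found in the *Mycn* window only among the 9 members searched, and in 0.813% of all windows. The 250 bases before the *Mycn* start (chr12:12941837-12942086, minus strand) hold 3 E2F matches, in capitals, of which the first and the second overlap, with first bases at -183, -179 and -168 from the start.
Mycn: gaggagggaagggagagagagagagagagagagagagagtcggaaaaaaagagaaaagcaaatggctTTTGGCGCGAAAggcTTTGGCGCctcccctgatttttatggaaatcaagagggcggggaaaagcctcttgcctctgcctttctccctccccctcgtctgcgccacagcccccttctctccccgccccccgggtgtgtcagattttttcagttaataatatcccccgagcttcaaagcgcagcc
The 4 E-boxes are shown in capitals with their flanks. They begin at -219 from the start in *Mxd4* (chr5:34187912-34187941, minus strand), at -123 in *Mnt* (chr11:74830789-74830818, plus strand), at -40 in *Mlx* (chr11:101087238-101087267, plus strand) and at -3 in *Max* (chr12:76962234-76962263, minus strand). In *Mnt*, *Mlx* and *Max* the start used lies inside the gene, downstream of its first base in RefSeq (74830806, 101086707 and 76962323).
Mxd4: gggctgggccacCACGTGctgttgctaagc
Mnt: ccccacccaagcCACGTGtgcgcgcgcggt
Mlx: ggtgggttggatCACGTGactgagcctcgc
Max: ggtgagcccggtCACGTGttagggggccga
A match of letters is a description of the window and shows no binding. The 4 members in which an E-box was found are *Max*, *Mlx* and the repressors *Mxd4* and *Mnt*. None of their probes was called in the genotype comparison after rapamycin, where 5.29% of all tested probes were.

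Values are log2 signals relative to the 75th percentile of the array, so that 0 is the level of that percentile, and they are compared between arrays for the same probe and never between probes. Calls required at least a 1.5-fold difference together with a Benjamini-Hochberg adjusted p under 0.05 in limma, adjusted over all 27579 probes. The arrays of a group correlated at r between 0.978 and 0.992 and had between 28696 and 32918 spots well above background. *Tsc2*, the deleted gene, was lower in *Tsc2Δpodocyte* podocytes for both of its probes, with log2 differences of -1.35 and -1.43 without treatment, and after rapamycin of -0.99 (adjusted p = 0.0124, limma) and -1.27 (adjusted p = 0.00794). The place of the *Tsc2* probes relative to the deleted exons was not determined. All 10 podocyte markers were above background in at least 1 whole group, *Nphs1* and *Wt1* among them. The arrays of each genotype lay in a row of their own on both slides, so that row and genotype cannot be told apart.

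*Mycn* had the widest differences of the family, lower in *Tsc2Δpodocyte* than in *Tsc2flox/flox* podocytes both without treatment and after rapamycin. The fall of *Mycn* without treatment is what singled out the family, so the members are described in the untreated comparison with no test. They are tested for the difference between the genotypes in the 8 rapamycin-treated arrays, whose means are not part of that fall. The members were chosen with earlier results of these data known, so the tests may not be independent of that choice. The limma fit also took its spread from all arrays, the untreated ones among them, so its p-values are not independent of it. Without treatment, the *Mycn* signal was -1.80, -2.68, -1.55 and -2.28 on the *Tsc2Δpodocyte* arrays and 0.65, 0.68, 0.45 and 1.21 on the *Tsc2flox/flox* arrays. Every *Tsc2Δpodocyte* array lay below every *Tsc2flox/flox* array, and the means of -2.08 ± 0.50 and 0.75 ± 0.32 (SD, n = 4 each) differed by -2.83, which is 7.10-fold (-2.16, or 4.47-fold, with normexp, a model-based correction for the local background). After rapamycin, the *Tsc2Δpodocyte* arrays gave -0.53, 0.04, -1.90 and -1.67 and the *Tsc2flox/flox* arrays 0.16, 0.72, 0.65 and 1.10. These groups did not overlap either, although the second *Tsc2Δpodocyte* array came close to the lowest *Tsc2flox/flox* array, and the *Tsc2Δpodocyte* arrays were spread widely, replicates 1 and 2 above replicates 3 and 4. Replicate 2 was also the highest treated *Tsc2Δpodocyte* array for *Tsc2*, at 2.73 (the others from 2.05 to 2.09) and -1.86 (from -2.68 to -2.44). Replicate 1 was not high for *Tsc2* (2.07 and -2.47). The part of the remaining *Tsc2* signal in the *Mycn* values was not tested. *Mycn* was 3.18-fold lower, a log2 difference of -1.67 with a standard error of 0.38 and a 95% interval from -2.49 to -0.85 (adjusted p = 0.0154, limma over all probes). A 2-sided exact permutation test gave p = 0.0286, the smallest that 4 arrays against 4 allow. The limma fit of only the 8 treated arrays used none of the untreated ones. In that fit the difference of -1.67 no longer passed (adjusted p = 0.0616), nor did it in the methods' t-test after Benjamini-Hochberg adjustment (adjusted p = 0.121).

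The difference between the genotypes in *Mycn* was smaller after rapamycin by 1.16 on the log2 scale, a value that shares the untreated arrays and is given with no test. The treated and untreated *Tsc2Δpodocyte* arrays overlapped and their means differed by 1.06, whereas the *Tsc2flox/flox* means differed by -0.09. Rapamycin, the slide and the age of the mice changed together and cannot be told apart in these values. Markers of parietal epithelial cells, which line Bowman's capsule and can grow out of glomeruli, were also lower in the *Tsc2Δpodocyte* cultures: *Pax8* had log2 differences of -1.47 without treatment (adjusted p = 0.000523) and -1.14 after rapamycin (adjusted p = 0.00668), and the cadherin *Cdh6* of -1.64 (adjusted p = 0.00146) and -1.90 (adjusted p = 0.00200). Of the 6 markers of this list, 2 were called lower in each comparison and 4 did not pass, against 3.85% of all genes called lower without treatment and 2.61% after rapamycin. The medians were -0.77 and -0.42, the latter -0.23 with normexp, where 2 of the 6 lay above 0. Their summed signal, in units of the 75th percentile, ranged from 30.0 to 113 on the untreated *Tsc2Δpodocyte* arrays and from 65.98 to 155 on the untreated *Tsc2flox/flox* arrays, and from 78.7 to 279 and from 89.0 to 329 after rapamycin. All 6 markers were above background, and their part in the *Mycn* result was not tested.

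*Myc*, the most widely used activator of the family, was lower in *Tsc2Δpodocyte* podocytes without treatment and showed no difference beyond the spread after rapamycin. It has a pair of probes for the same transcript. For A_52_P108346 the untreated *Tsc2Δpodocyte* arrays gave 1.44, 0.95, 1.67 and 1.71 and the *Tsc2flox/flox* arrays 1.99, 2.28, 1.88 and 2.00. For A_52_P278549 they gave -1.54, -1.71, -1.07 and -1.23 against -0.49, -0.60, -0.999 and -1.03. On both probes every *Tsc2Δpodocyte* array lay below every *Tsc2flox/flox* array, with differences of -0.59 and -0.61, which are 1.51-fold and 1.52-fold and so just past the fold threshold. In the deposited values they were under it, at 1.48-fold and 1.49-fold. A_52_P108346 was at 1.498-fold with quantile normalization and 1.54-fold with normexp, and A_52_P278549 at 1.51-fold and 1.40-fold. After rapamycin, A_52_P108346 gave 2.26, 2.44, 1.65 and 1.83 on the *Tsc2Δpodocyte* arrays and 1.99, 2.13, 1.97 and 2.04 on the *Tsc2flox/flox* arrays. The *Tsc2Δpodocyte* arrays now lay on both sides of the *Tsc2flox/flox* arrays, with replicates 1 and 2 above them and replicates 3 and 4 below them. The log2 difference was 0.01 (95% interval from -0.38 to 0.40, adjusted p = 0.977, limma) for this probe and 0.00 (from -0.42 to 0.43, adjusted p = 0.992) for the other. The difference between the 2 genotype comparisons was 0.61 for each probe, described with no test because it uses the means of the untreated arrays.

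*Mycl*, another activator, was detected by 1 of its 2 probes. A_52_P93284 ranged from -2.16 to -1.43 on the untreated *Tsc2Δpodocyte* arrays and from -2.12 to -1.67 on the *Tsc2flox/flox* arrays, and the groups overlapped. Its log2 difference was 0.21 without treatment and 0.26 after rapamycin (95% interval from -0.12 to 0.64, adjusted p = 0.388). The other probe, A_51_P240565, was not well above background on any of the 16 arrays and was not tested. None of the activators was called higher in *Tsc2Δpodocyte* podocytes after rapamycin, where 2.97% of all genes tested were.

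**Figure D1:**
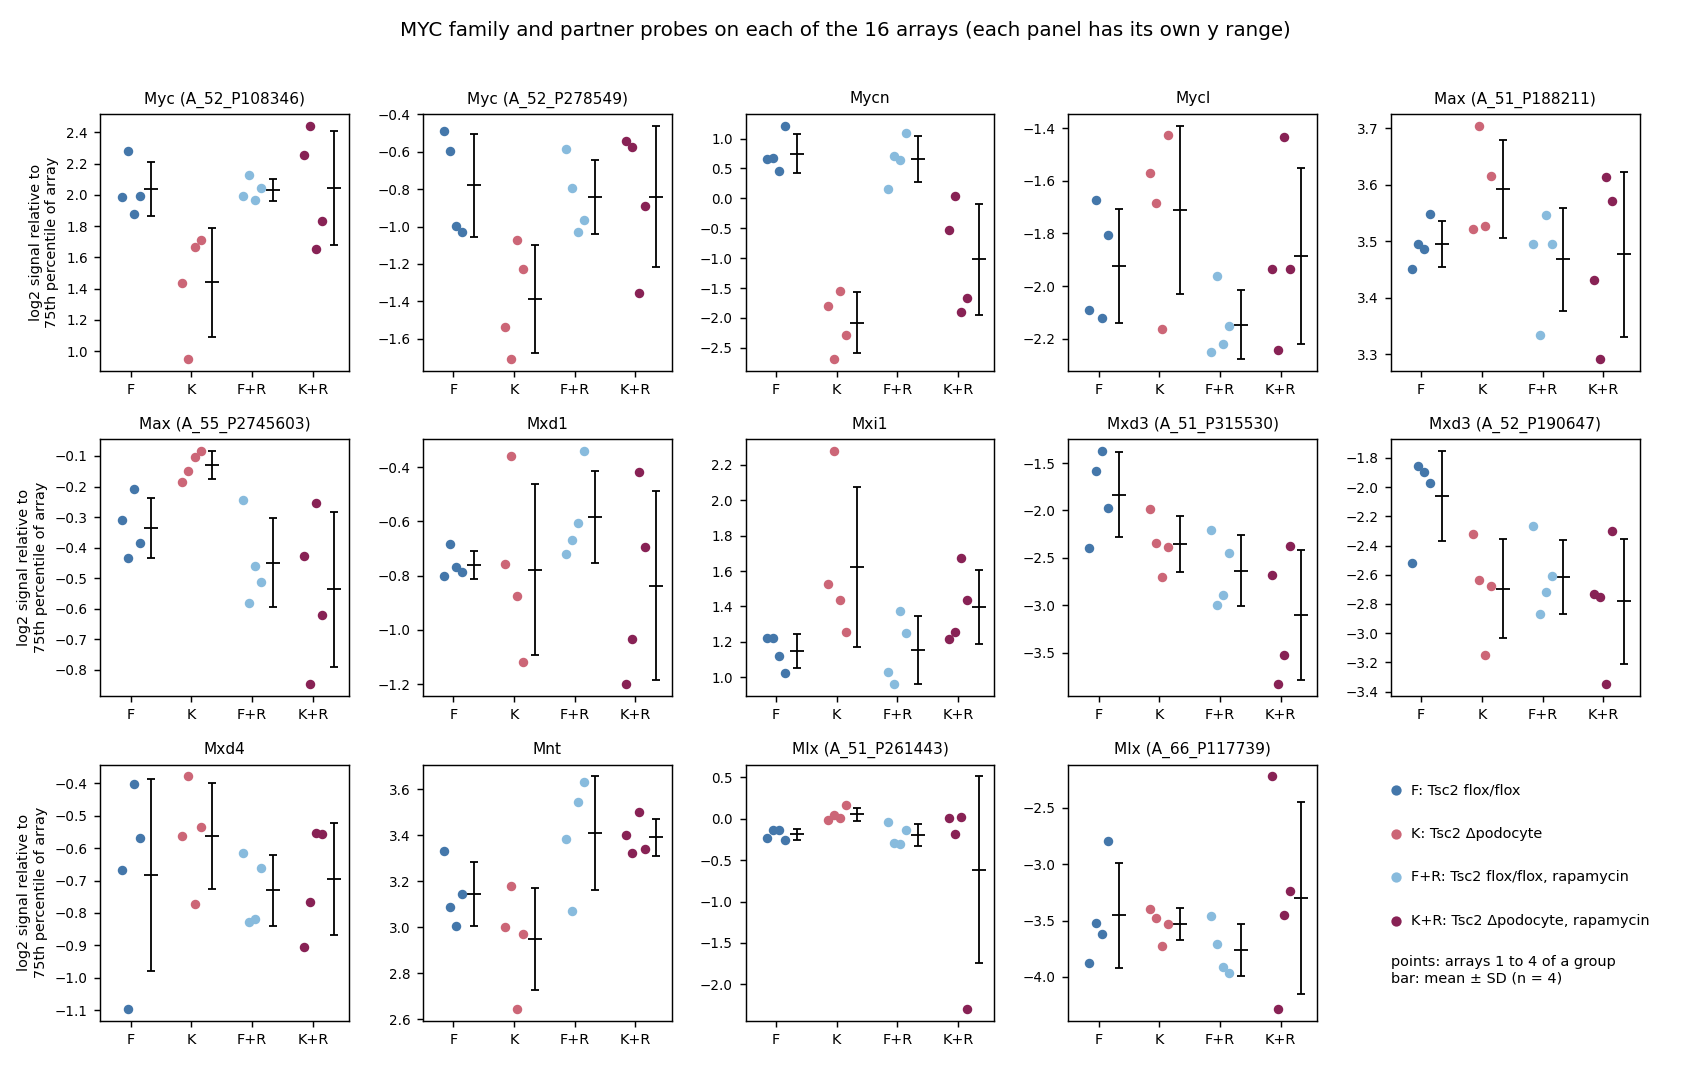
Log2 signal relative to the 75th percentile of each array for the 14 tested probes of the MYC family and partners, with 1 point per array, and the mean ± SD of each group (n = 4) as a black bar. *Mycn* is the only panel in which the *Tsc2Δpodocyte* arrays lie below the *Tsc2flox/flox* arrays both without treatment and after rapamycin, and 1 array of *Tsc2Δpodocyte* podocytes after rapamycin stands at -2.30 in the panel of *Mlx* A_51_P261443.

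*Max*, the shared dimer partner without which MYC proteins do not bind E-boxes, differed little. Its probe A_51_P188211 gave 3.52, 3.70, 3.53 and 3.62 on the untreated *Tsc2Δpodocyte* arrays and 3.45, 3.50, 3.49 and 3.55 on the *Tsc2flox/flox* arrays, a difference of 0.10 with overlapping groups. Its probe A_55_P2745603 gave -0.18, -0.15, -0.10 and -0.08 against -0.31, -0.44, -0.21 and -0.38. On this probe all 4 *Tsc2Δpodocyte* arrays were higher, by 0.20 in the mean, which is 1.15-fold and under the fold threshold. After rapamycin the log2 differences were 0.01 (95% interval from -0.17 to 0.19, adjusted p = 0.961) and -0.09 (from -0.33 to 0.16, adjusted p = 0.682).

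Among the repressors that pair with MAX, *Mxi1* had higher values on each untreated *Tsc2Δpodocyte* array than on any untreated *Tsc2flox/flox* array. The *Tsc2Δpodocyte* arrays gave 1.52, 2.28, 1.44 and 1.25 and the *Tsc2flox/flox* arrays 1.22, 1.22, 1.12 and 1.03. The groups did not overlap, though the lowest *Tsc2Δpodocyte* array lay only just above the highest *Tsc2flox/flox* arrays, and the mean difference of 0.48 is 1.39-fold, under the fold threshold, and was 0.26 without *Tsc2Δpodocyte* replicate 2. After rapamycin, *Mxi1* gave 1.21, 1.26, 1.67 and 1.43 against 1.03, 0.96, 1.37 and 1.25, which overlapped, a log2 difference of 0.24 (95% interval from -0.15 to 0.63, adjusted p = 0.441).

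*Mxd3*, a MAD repressor known for its use in dividing cells, had lower means in *Tsc2Δpodocyte* podocytes, but its groups overlapped in both comparisons. Its untreated values for A_52_P190647 were -2.32, -2.64, -3.15 and -2.68 on the *Tsc2Δpodocyte* arrays and -2.52, -1.86, -1.90 and -1.97 on the *Tsc2flox/flox* arrays. The overlap came from replicate 1 of the *Tsc2flox/flox* group, which was as low as the *Tsc2Δpodocyte* arrays on both *Mxd3* probes. The untreated differences were -0.52 for A_51_P315530 and -0.63 for A_52_P190647. After rapamycin they were -0.47 (95% interval from -1.14 to 0.20, adjusted p = 0.375) and -0.17 (from -0.65 to 0.32, adjusted p = 0.694). Between the untreated and the treated arrays, the mean of A_51_P315530 differed by -0.75 in *Tsc2Δpodocyte* and by -0.81 in *Tsc2flox/flox* podocytes, and that of A_52_P190647 by -0.09 and -0.55.

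*Mnt*, a broadly used antagonist of MYC, ranged from 2.64 to 3.18 on the untreated *Tsc2Δpodocyte* arrays and from 3.01 to 3.33 on the *Tsc2flox/flox* arrays, a difference of -0.19. After rapamycin the log2 difference was -0.02 (95% interval from -0.30 to 0.26, adjusted p = 0.954). The treated *Tsc2Δpodocyte* arrays, at 3.40, 3.32, 3.50 and 3.34, all lay above the untreated ones, with a difference of 0.44. *Mxd4* differed by 0.12 and 0.04 in the 2 genotype comparisons (after rapamycin adjusted p = 0.906). *Mxd1* differed by -0.02 and, after rapamycin, by -0.25 (95% interval from -0.62 to 0.12, adjusted p = 0.382). Its other probe, A_51_P388607, was not well above background on any of the 16 arrays. No repressor was called in the comparison after rapamycin, where 5.29% of all tested probes were.

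*Mlx*, the partner of the MONDO factors, gave unlike values on its 2 probes. A_51_P261443 was at -0.02, 0.05, 0.01 and 0.16 on the untreated *Tsc2Δpodocyte* arrays and at -0.23, -0.13, -0.14 and -0.26 on the *Tsc2flox/flox* arrays. These groups did not overlap and differed by 0.24. After rapamycin the *Tsc2Δpodocyte* arrays gave 0.01, -0.19, 0.02 and -2.30 and the *Tsc2flox/flox* arrays -0.03, -0.30, -0.31 and -0.14. Replicate 4 of the *Tsc2Δpodocyte* group alone set the log2 difference of -0.42 (adjusted p = 0.518), which was 0.14 without that array (adjusted p = 0.390). On A_66_P117739 the same array was at -3.24, inside the range of its group from -4.29 to -2.22, and the log2 differences were -0.08 without treatment and 0.46 after rapamycin (95% interval from -0.24 to 1.17, adjusted p = 0.406).

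Counted over the family, 6 of the 14 tested probes did not overlap between the untreated genotypes, against 24.6% of all tested probes. Of these, 3 were lower (*Mycn* and both probes of *Myc*; 12.2% of all probes) and 3 higher (*Mxi1*, *Max* A_55_P2745603 and *Mlx* A_51_P261443; 12.3%). With normexp background correction 3 of 14 did not overlap, 0 of them higher, and the untreated difference of *Mlx* A_51_P261443 was 0.07. Nothing is read from these counts, since this comparison chose the family. Over all tested probes, 9.89% were called without treatment and 3.95% were called lower. After rapamycin, *Mycn* alone did not overlap and was alone called, 1 of 14 probes against 17.1% of all tested probes that did not overlap (7.42% lower) and 5.29% that were called (2.59% lower). It was also the only member probe with an unadjusted p under 0.05 (limma). The median difference of the 14 probes was -0.05 without treatment and -0.01 after rapamycin, against -0.01 and 0.01 over the 14095 genes tested. Between treated and untreated arrays no member probe was called in either genotype, where 1.65% of all probes were called in *Tsc2Δpodocyte* and 0.105% in *Tsc2flox/flox* podocytes. In *Tsc2Δpodocyte* podocytes 2 of the 14, *Mnt* and *Max* A_55_P2745603, did not overlap between treated and untreated arrays, against 13.4% of all probes, and in *Tsc2flox/flox* podocytes 0 of 14 did, against 10.7%.

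**Figure D2:**
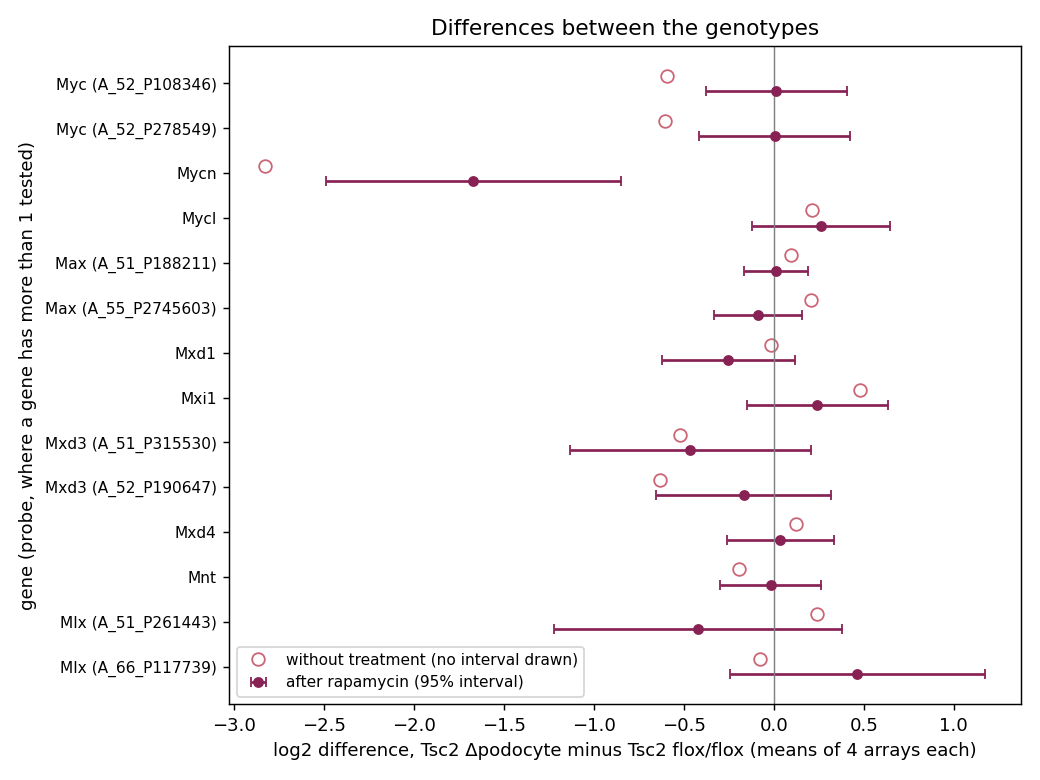
Log2 difference between the mean signals of *Tsc2Δpodocyte* and *Tsc2flox/flox* podocytes (4 arrays each) for the 14 tested probes, without treatment (open circles) and after rapamycin (filled circles with 95% intervals from limma). The interval of *Mycn* after rapamycin runs from -2.49 to -0.85 and is the only interval that does not include 0.

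The genes whose signals followed *Mycn* most closely were the transcription factor *Sox11*, the polysialyltransferase *St8sia2*, *Nol4*, and the signalling inhibitors *Socs2* and *Spry1*. Likeness was measured as the root mean square of the difference between centred log2 signals over the 16 arrays, among 9191 named probes that vary at least as much as the median probe. It was 0.49 for *Sox11*, 0.51 for *St8sia2*, 0.52 for *Nol4*, 0.52 for *Socs2* and 0.55 for *Spry1*, where the median probe was at 1.37. All 5 were lower in *Tsc2Δpodocyte* podocytes, by log2 differences of -2.16, -2.11, -1.83, -1.82 and -1.68 without treatment and of -1.43, -1.71, -1.39, -1.33 and -1.23 after rapamycin. Such differences follow from how the genes were found. Like *Mycn*, all 5 were higher on *Tsc2Δpodocyte* arrays 1 and 2 after rapamycin than on arrays 3 and 4, save that *St8sia2* was lower on array 1 than on array 4.

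The nearest genes to *Myc* (A_52_P108346) were *Armc10*, *Cdkn2aipnl*, the nucleolar genes *Rrp1b* and *Wdr3*, and the mitochondrial ribosome gene *Nsun4*, with distances from 0.17 to 0.20 against a median of 0.57. Their differences ranged from -0.67 to -0.22 without treatment and from -0.25 to 0.07 after rapamycin. Replicate 2 of the untreated *Tsc2Δpodocyte* group was the lowest array for *Myc* and for each of these 5 genes.

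**Figure D3:**
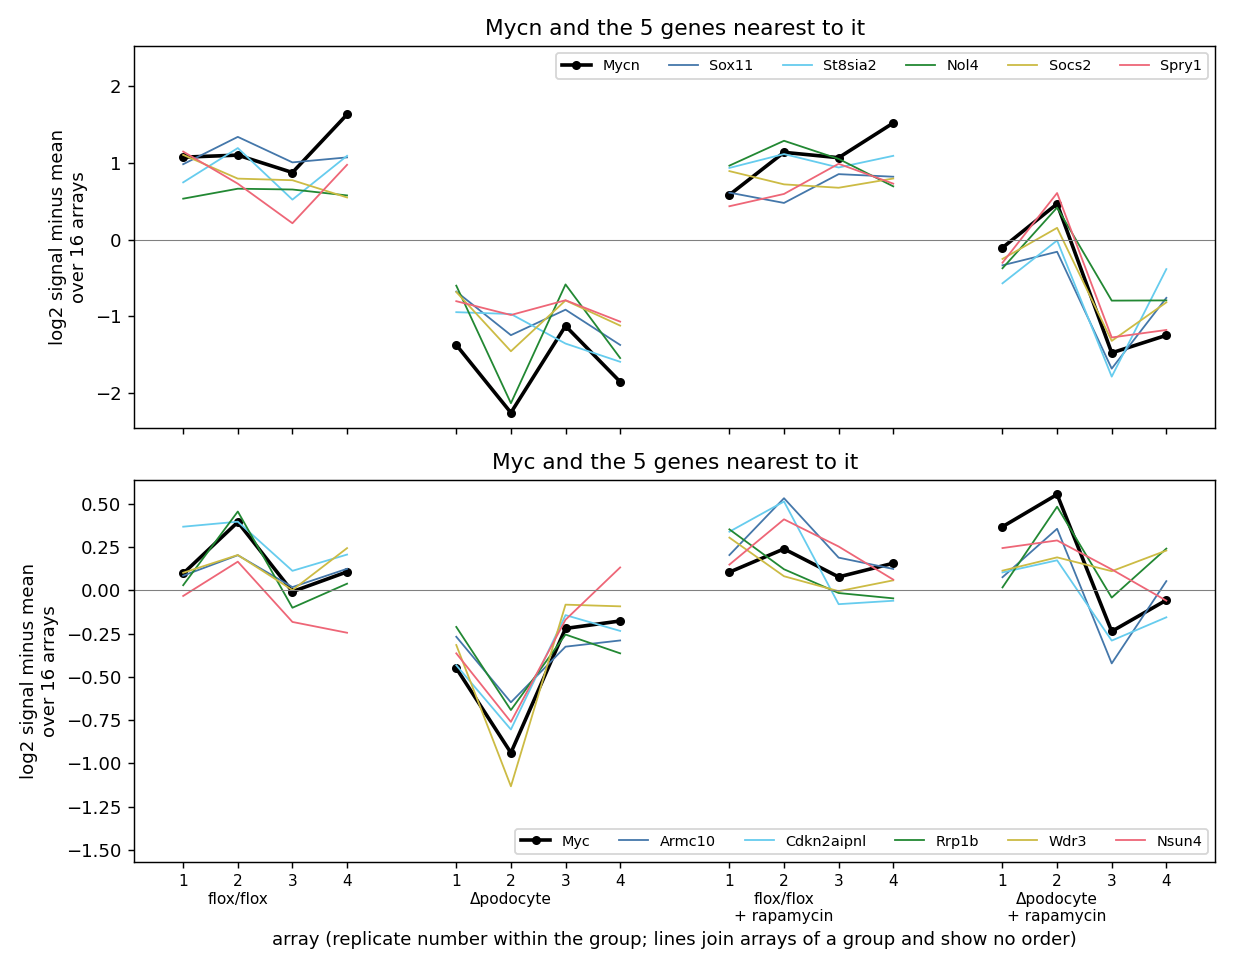
Log2 signal minus its mean over the 16 arrays for *Mycn* (top) and *Myc* (bottom) in black and for the 5 genes nearest to each, by array within the 4 groups. *Mycn* and its 5 neighbours lie below 0 on every untreated *Tsc2Δpodocyte* array and above 0 on every *Tsc2flox/flox* array, and all 6 genes lie below 0 on *Tsc2Δpodocyte* arrays 1, 3 and 4 after rapamycin.

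Genes that set the stability of MYC proteins included 1 called gene of 11, *Skp2*, a ubiquitin ligase subunit, which was lower in untreated *Tsc2Δpodocyte* podocytes (log2 difference -0.74, adjusted p = 0.0351) and at -0.47 after rapamycin (adjusted p = 0.194). *Fbxw7*, the ligase subunit that marks MYC and MYCN for degradation, was higher in both comparisons, by 0.55 (adjusted p = 0.0154) and 0.50 (adjusted p = 0.0363), each under the fold threshold. Its means were 1.78 ± 0.14 against 1.22 ± 0.25 without treatment and 1.93 ± 0.28 against 1.42 ± 0.06 after rapamycin (SD, n = 4 each). The deubiquitinase *Usp7* was slightly lower without treatment (-0.28, adjusted p = 0.0380). With normexp *Skp2* was at -0.55, under the fold threshold, and *Usp7* did not pass (adjusted p = 0.0531). The other 8 genes did not pass without treatment, and 10 of 11 did not after rapamycin. At the level of genes, 3.85% of all those tested were called lower without treatment. Without the fold threshold, 10.3% of all genes tested passed the adjusted p as higher and 9.2% as lower without treatment, and 6.2% and 4.97% after rapamycin.

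Of 14 cofactors that MYC recruits, none reached the fold threshold. Whatever the fold, 10.3% of all genes passed as higher and 9.2% as lower without treatment, and 6.2% and 4.97% after rapamycin. The chromatin adaptor *Hcfc1* (-0.38, adjusted p = 0.0162), *Wdr5* (-0.36, adjusted p = 0.0357) and the acetyltransferase *Kat5* (-0.24, adjusted p = 0.0431) were lower without treatment, and the scaffold *Trrap* was lower after rapamycin (-0.40, adjusted p = 0.0232). *Trrap* did not pass with normexp (adjusted p = 0.0728), nor did *Kat5* in the deposited values (adjusted p = 0.0768). The medians of this list were -0.20 and -0.17, against -0.01 and 0.01 over all genes tested, with 13 and 12 of the 14 genes below 0. With normexp 12 and 10 lay below 0, and 6 passed as lower without treatment and 0 after rapamycin. In the wider MAX and MLX network, 11 of 12 genes were tested. *Bmyc*, a MYC-like gene without the DNA-binding part, was lower without treatment (-0.58, adjusted p = 0.00393) and at -0.28 after rapamycin (adjusted p = 0.136). The corepressor *Sin3b* was higher in both comparisons (0.28, adjusted p = 0.0487, and 0.44, adjusted p = 0.0111), but without treatment it did not pass with normexp (adjusted p = 0.0762) or quantile normalization (adjusted p = 0.172). *Txnip*, a target of the MONDO and MLX factors, was at 0.56 without treatment (adjusted p = 0.0814).

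Of 38 textbook genes that MYC induces, 37 were tested, among them ornithine decarboxylase, nucleolin and other ribosome production genes. Without treatment 1 was called, the transcription factor *Tfap4* (-0.70, adjusted p = 0.00180, but -0.09 and adjusted p = 0.414 with normexp), against 3.85% of all genes called lower and 6.18% called higher. Whatever the fold, 6 were lower and 3 higher and 28 did not pass. The phosphatase *Cdc25a* (-0.57, adjusted p = 0.00983) was among the lower, and the ribosomal RNA transcription factor *Ubtf* (0.54, adjusted p = 0.00776) was higher. After rapamycin, where 2.97% of all genes were called higher and 2.61% lower, none was called, and *Tfap4* was among those lower whatever the fold (-0.47, adjusted p = 0.0274), which it was not with normexp (adjusted p = 0.151) or quantile normalization (adjusted p = 0.0761). The median of the list was -0.15 without treatment and 0.10 after rapamycin, the latter -0.00 after normexp background correction. Of 11 genes that MYC represses, the stress gene *Gadd45a* was called higher (1.06, adjusted p = 0.0351) and the matrix gene *Thbs1* lower (-0.72, adjusted p = 0.0329) without treatment, and none passed after rapamycin, where *Gadd45a* was at 0.72 (adjusted p = 0.171). The median of these 11 genes was 0.06 without treatment and -0.24 after rapamycin, the latter -0.08 with normexp. After rapamycin 9 of the 11 lay below 0, and 7 did with normexp. *Pdgfrb* of this list is also counted among the mesangial markers.

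Genes of dividing cells, a list of 15 genes of replication and mitosis, did not pass in either comparison. Of all genes, 9.2% passed as lower without treatment and 4.97% after rapamycin, whatever the fold. All 15 differences were below 0 without treatment, with a median of -0.37, led by the mitotic kinase *Plk1* (-0.77, adjusted p = 0.107) and *Ccna2* (-0.61, adjusted p = 0.117). After rapamycin 7 lay above 0 and 8 below, with a median of -0.01. The summed signal of these genes ranged from 100.1 to 157 on the untreated *Tsc2Δpodocyte* arrays and from 119 to 246 on the untreated *Tsc2flox/flox* arrays. Its part in the *Myc* and *Mycn* values was not tested.

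Nephron progenitor genes, which share *Mycn* as a marker of the embryonic kidney, moved in both directions. Of 8 tested, *Hoxa11* (0.94, adjusted p = 0.0111), *Eya1* (0.60, adjusted p = 0.00627) and *Wnt4* (1.32, adjusted p = 0.0362) were called higher and *Osr1* lower (-1.52, adjusted p = 0.0225) in untreated *Tsc2Δpodocyte* podocytes, against 6.18% of all genes called higher and 3.85% lower, and *Eya1* was under the fold threshold with quantile normalization (0.48). The untreated *Wnt4* values were spread widely, with means of 4.26 ± 1.05 and 2.94 ± 0.46 (SD, n = 4 each). After rapamycin none of the 8 was called, against 2.97% of all genes called higher and 2.61% lower. *Eya1* was at 0.55 (adjusted p = 0.0167), *Osr1* at -0.66 (adjusted p = 0.343) and *Wnt4* at 0.09 (adjusted p = 0.919). Of the genes that neighbour *Mycn* on its chromosome, 3 were tested. *Cyria* was called higher in both comparisons (0.61, adjusted p = 0.00889, and 0.60, adjusted p = 0.0162), though at 0.44 without treatment with normexp, *Nbas* was at 0.35 (adjusted p = 0.0942) and 0.45 (adjusted p = 0.0562), and *Ddx1* at 0.03 and 0.18 (adjusted p = 0.799 and 0.156). All 3 differences lay above 0 in both comparisons, opposite to that of *Mycn*, except that *Ddx1* was at -0.0081 after rapamycin with normexp. For the difference between the 2 genotype comparisons, 1 probe of 27579 was called (0.00363%) and it belonged to none of these lists.

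**Figure D4:**
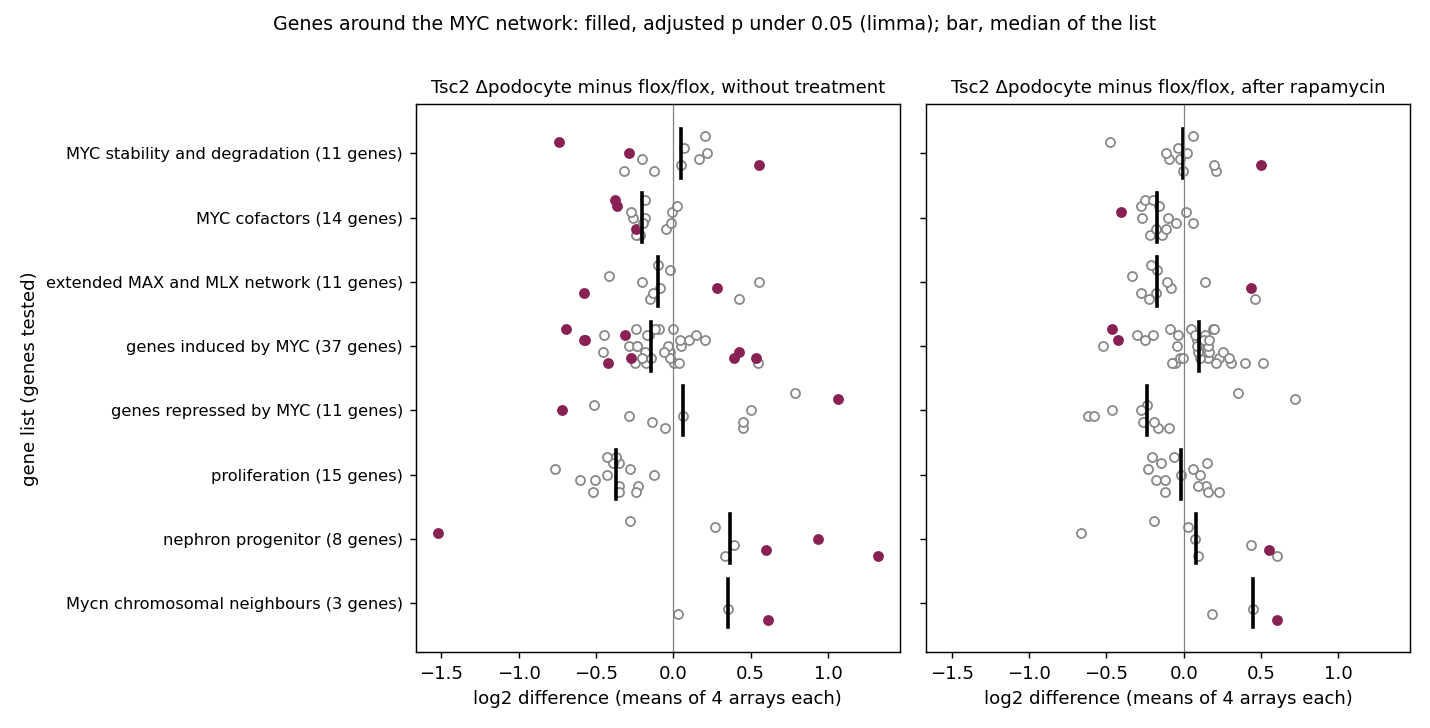
Log2 difference between *Tsc2Δpodocyte* and *Tsc2flox/flox* podocytes for each tested gene of the 8 lists around the MYC network, without treatment (left) and after rapamycin (right), with filled points at an adjusted p under 0.05 in limma and the list median as a bar. The proliferation list lies wholly below 0 without treatment (median -0.37) and around 0 after rapamycin (median -0.01).

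Markers of other glomerular cells were measured beside these values. Of all genes tested, 6.18% were called higher and 3.85% lower without treatment, and 2.97% and 2.61% after rapamycin. Of 10 podocyte markers none was called without treatment and 1, *Podxl*, was called higher after rapamycin (1.18, adjusted p = 0.0372), which did not pass with normexp (0.88, adjusted p = 0.0706). Of 6 mesangial and smooth muscle markers, *Des* was higher in both comparisons (1.76, adjusted p = 0.000539, and 1.28, adjusted p = 0.00872) and *Itga8* without treatment (1.42, adjusted p = 0.0104). The other 4 did not pass without treatment, and 5 of the 6 did not after rapamycin. The medians of this list were 0.53 and 0.15. After rapamycin 2 of the 6 lay below 0, among them *Pdgfrb* at -0.58 (adjusted p = 0.161, limma). Of 6 macrophage markers, *Cd68* was higher without treatment (1.03, adjusted p = 0.0190), the other 5 did not pass and none was called after rapamycin. *Itgam* of this list was at -0.52 (adjusted p = 0.0503) and -0.55 (adjusted p = 0.0545), and passed as lower with normexp in both comparisons (adjusted p = 0.0429 and 0.00878). Of 3 tested tubule markers, *Lrp2* was lower in both comparisons (-1.57, adjusted p = 0.00489, and -1.84, adjusted p = 0.00516), *Aqp2* at 0.11 and 0.40 and *Cdh16* at -0.55 and -0.48 did not pass, with the tubule genes *Slc34a1*, *Umod* and *Slc12a1* under the filter. None of the 6 endothelial markers was called between the genotypes, though the summed endothelial signal was between 5.62 and 79.5 on the untreated arrays of both genotypes and between 3.09 and 10.1 on the treated ones. The summed mesangial signal ranged from 571 to 809 on the untreated *Tsc2Δpodocyte* arrays and from 557 to 648 on the untreated *Tsc2flox/flox* arrays. The summed macrophage signal ranged from 8.90 to 12.1 and from 7.33 to 13.9 on these groups. The part of these cells in the values of the members was not tested.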

How the data were processed

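The authors labelled total RNA of 16 cultures with Cy3, and the deposited scanner files hold background-subtracted intensity values of each spot on a linear scale from Agilent Feature Extraction 10.7.3.1, per the labels. The deposited series table, log2 values of the authors from the same intensities, was used as an alternative (r of at least 0.9997 with the values used here). The log2 intensity minus that of each array's 75th percentile was used, without 3671 control and 1344 outlier spots, and repeated spots were averaged. The file's well-above-background column set the filter: all 4 arrays of at least 1 group. Transcript identifiers named 33024 probes through RefSeq and left 23581 unnamed. limma 3.58.1 (R 4.3.3) was fitted with 4 group means over 16 arrays, with Benjamini-Hochberg adjustment over 27579 probes, and the script was checked on simulated data. A gene of a list is represented by its brightest tested probe. Motifs and figures were made with Python 3.11.15 and matplotlib 3.10.9. The number of arrays limits the precision.

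The members and lists were chosen with earlier results of these data known. Named were all member probes, *Tsc2*, up to 4 genes of each list with the smallest p in a genotype comparison and the 5 genes nearest to *Mycn* and *Myc*, beside markers. Alternatives were normexp background correction (offset 50), quantile normalization, the deposited values, no filter and a stricter one, a trended and robust prior, the fit of just the 8 arrays of a comparison, no fold threshold, the methods' t-test, the replicate number as a block and each array left out in turn. Some genes that this rule names are not reported here.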

Additional observations from a re-analysis of the deposited data

Results flagged for a closer look

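Of 56 groups of 4 arrays checked, 1 held a value far from the rest. *Mlx* A_51_P261443 in *Tsc2Δpodocyte* podocytes after rapamycin was at -2.30 on replicate 4, and the gap to the next array was 0.910 of the range of the group, above Dixon's critical value for 4 values at 95%. Chance marks about 1 in 20 such groups. The array was not low for the other *Mlx* probe, and the value was well above background.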

How the results depend on the processing

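The fall of *Mycn* after rapamycin kept its direction under each alternative, between -2.02 and -1.37 when 1 array was left out (adjusted p between 0.00494 and 0.0484, limma), and was called in all of them except with only the 8 arrays compared and in the methods' t-test, which called 0 member probes instead of 1, each with 1 at an unadjusted p under 0.05. Without treatment its difference was -2.16 after normexp. Over all probes, 1459 were called after rapamycin, 769 with normexp, 906 with no filter, 433 in the t-test and 2839 with no fold threshold, and between 847 and 1680 when 1 array was left out, with 945 without *Tsc2Δpodocyte* replicate 1 and 847 without *Tsc2flox/flox* replicate 3. Without treatment 2728 were called, 1795 with normexp, 1664 in the t-test, 4968 with no fold threshold and between 2128 and 2773 when 1 array was left out. Non-overlapping member probes without treatment fell from 6 to 3 with normexp. Differences near 0 after rapamycin changed sign: *Myc* A_52_P278549 was at -0.041 with normexp, *Max* A_51_P188211 at -0.061 with normexp and -0.051 with quantile normalization, and *Mnt* at 0.0081 in the deposited values. With 1 array left out, the ranges were -0.12 to 0.14 and -0.096 to 0.18 for *Myc*, -0.036 to 0.071 and -0.18 to 0.015 for *Max*, -0.33 to 0.021 for *Mxd3* A_52_P190647, -0.012 to 0.11 for *Mxd4*, -0.13 to 0.058 for *Mnt* and -0.63 to 0.14 for *Mlx* A_51_P261443, and the cause of the other changes was not tested. The MYC stability list had a median of 0.05 without treatment and of -0.08 with normexp.

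Same-numbered arrays of the untreated genotypes correlated in their deviations at -0.01, -0.23, -0.30 and -0.05, and those of the treated genotypes at -0.02, 0.46, 0.17 and 0.29, so 0 of 4 untreated and 3 of 4 treated pairs were over 0.1. Of the 4 treated *Tsc2Δpodocyte* arrays, 1 correlated best with its own number, and the numbers were not taken as pairs. With the replicate number as a block, 1283 probes were called after rapamycin and 2597 without treatment, and *Mycn* was still called (adjusted p = 0.0349).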
